A study of Mus musculus with 28 samples.

Results

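The genes described here encode the secreted and membrane-bound metalloproteinases that cut the extracellular matrix, together with their inhibitors. They are the 22 Mmp genes (matrix metalloproteinases), the 4 Timp genes (tissue inhibitors of metalloproteinases), the 19 Adamts genes (secreted proteases with a disintegrin domain and thrombospondin repeats) and the 5 Adamtsl genes (relatives of ADAMTS without a protease domain). The rule for members reads gene symbols and uses no measured value, and the 50 genes were found among 35928 gene symbols in the liver and pancreas libraries of set 2 and among 24845 in the liver and lung table of set 1.

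The study asked what acute expression of human APOBEC3B (A3B), a cytosine deaminase, does to adult mice. A3B mice carried A3B fused to turboGFP behind a doxycycline-responsive promoter in the ColA1 locus, plus the CAGs-rtTA3 driver, which is active in most tissues, and ate food with doxycycline from 4 weeks of age. RNA-seq of set 2 covered livers of 6 A3B mice and 2 controls and pancreases of 6 A3B mice and 2 controls, with 10 days on the labels of every mouse, and here the control mice had the A3B transgene but no driver. Set 1 covered livers and lungs of 3 A3B mice and 3 controls each, with labels that give 14 days for A3B livers 23 and 28, 10 days for A3B liver 70 and the A3B lungs, and 15 days for every control. Groups follow the sample titles, where A3B animals are called Sample. The labels and titles conflict in places. A3B pancreases 44 and 137 carry the single-transgene genotype and control pancreases 45 and 168 the double one on their labels, whereas the titles and the study's list of mice give the groups used here. In set 1, control liver 11 came from a mouse with both transgenes, control lung 87 from one with the driver alone, and the list of mice gives 0 days on doxycycline for the set 1 controls apart from 11 days for control lung 87. For set 2 the labels and the list of mice give 10 days for the controls, and the study's methods state that control littermates received doxycycline. A figure legend of the study, however, calls its pair of control animals untreated with doxycycline, so doxycycline may differ between the groups along with A3B. All the livers and pancreases of mice 44, 49, 125, 137, 153, 45 and 168 are pairs from the same animals, and mice 70 and 91 gave both a liver and a lung in set 1.

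Matrix metalloproteinases are made as inactive precursors. Removal of the propeptide switches them on, and each TIMP binds the active site of most of them and shuts it. Collagenases cut fibrillar collagen, gelatinases cut denatured collagen and basement membrane collagen, stromelysins and matrilysin have broad substrates, and the membrane-type enzymes act at the cell surface, where MMP14 and TIMP2 together activate pro-MMP2. In the ADAMTS family one branch cuts large proteoglycans such as versican and aggrecan, another removes the N-propeptide of procollagen, and ADAMTS13 trims von Willebrand factor. In pancreas and liver these genes are known mostly from stellate cells, fibroblasts, macrophages and injured epithelium.

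Set 2 libraries held between 65161064 and 118976013 estimated counts, and set 1 was deposited as TPM (a level per transcript length, scaled to one fixed total in each library), so the depth there is unknown. In set 1, human A3B lay at 705 to 1705 TPM in A3B livers and 90.6 to 281 TPM in A3B lungs, against at most 0.144 TPM in control livers and 0.526 TPM in control lungs. Marker sums matched the labelled tissues. The 6 acinar markers summed to 215053 and 231448 TPM in the control pancreases, the 5 hepatocyte markers to at least 30810 TPM in every liver of set 2 and 2060 TPM in every liver of set 1, and the 5 lung epithelial markers to at least 16545 TPM in every lung. In set 2 the acinar sum reached 520 TPM in an A3B liver, against at most 53.4 TPM in a control liver. The hepatocyte sum reached 891 TPM in an A3B pancreas, against at most 62.8 TPM in a control pancreas. The source of these reads was not tested, which limits low liver levels of genes high in A3B pancreases, such as Mmp7 and Timp1. In A3B pancreases the acinar sum was lower, at 61497 to 164688 TPM, and most other genes were higher in TPM. Since TPM values share a fixed total, a level in TPM also depends on the other genes of its library, and fold changes of set 2 are given after TMM scaling, which sets the bulk of genes near no change. On that scale the median log2 change over all genes was 0.09 for pancreas and 0.21 for liver, against 2.29 and 0.68 when libraries were scaled by their totals alone. In whole tissue, fewer cells of a type cannot be told apart from less RNA per cell.

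Of the members, 9 lie side by side on mouse chromosome 9 (chr9:7272514-7699585, GRCm38), in the order Mmp13, Mmp12, Mmp1b, Mmp3, Mmp1a, Mmp10, Mmp27, Mmp20 and Mmp7. The other members are spread over many chromosomes, with Adamts15 next to Adamts8, Adamts1 next to Adamts5 and Adamts13 near Adamtsl2. The genes of the chromosome 9 cluster are known as targets of AP-1, the Fos and Jun transcription factors, so their start sites were read for the AP-1 motif TGANTCA, which is its own reverse complement and was searched from 250 bases before to 50 bases after each RefSeq start on GRCm38.p6. Promoters were found for 35 of the 50 members. The motif was in 8 of the 9 cluster members, Mmp27 being the exception, and in 0 of the 26 members with a promoter outside the cluster. Over all genes with a promoter it was in 2425 of 27025 genes, or 8.97%. The matches began 35 to 95 bases upstream of the start, and the sequences are shown because they set the cluster apart from the rest of the family. Each line gives 27 bases on the gene's own strand, 5′ to 3′, with the motif in capitals.
Mmp13, chr9:7272469-7272495, plus strand: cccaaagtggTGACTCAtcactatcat
Mmp12, chr9:7347320-7347346, plus strand: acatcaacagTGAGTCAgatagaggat
Mmp1b, chr9:7388103-7388129, minus strand: ttacaaagccTGAGTCAtatagcctct
Mmp3, chr9:7445766-7445792, plus strand: gaagcaattaTGAGTCAgttttcgggt
Mmp1a, chr9:7464058-7464084, plus strand: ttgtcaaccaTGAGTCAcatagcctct
Mmp10, chr9:7502269-7502295, plus strand: agcacccatgTGAGTCAtgcttagtga
Mmp20, chr9:7628126-7628152, plus strand: atttgagacaTGAATCAtcacttacag
Mmp7, chr9:7692017-7692043, plus strand: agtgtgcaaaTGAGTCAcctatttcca

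A match to these letters is a description and not a binding site. Mmp1a and Mmp1b were at 0 in every library of set 2. The other cluster genes with the motif are described below with their levels.

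Control tissues differed in which members had the highest mean level. In control livers of set 2 the highest mean levels were those of Mmp19, an enzyme of basement membrane substrates, at 33.8 ± 7.69 TPM (SD, n = 2), the membrane-type Mmp14 at 19.5 ± 4.8 TPM and the membrane-type Mmp15 at 16.2 ± 4.87 TPM, followed by Timp3 at 5.89 ± 1.88 TPM and Timp2 at 5.59 ± 1.65 TPM. In control pancreases Timp2 led with 12.1 ± 12.7 TPM (SD, n = 2), before Timp3, Adamts10, Mmp23 and Mmp2, whose means ran from 5.25 down to 1.85 TPM. Control 168 held more of all 5 than control 45, and with 2 mice their order is uncertain. In the control lungs of set 1 the ADAMTS enzymes led, with Adamts10 at 465 ± 58.3 TPM (SD, n = 3), Adamts1 at 422 ± 132 TPM, Adamts2 at 333 ± 128 TPM and Adamts15 at 181 ± 26.1 TPM, and Timp2 was at 104 ± 14.3 TPM. In the control livers of set 1 they were Adamts2 at 48.1 ± 14.9 TPM (SD, n = 3), Mmp19 at 45.3 ± 11.8 TPM, Mmp14 at 40.6 ± 3.04 TPM, Adamts1 at 31.3 ± 15.4 TPM and Adamts14 at 10.6 ± 3.06 TPM. The sets were quantified in different ways, so their levels are not compared with each other. At the other end, 23 members stayed under 1 TPM in every liver of set 2, 16 in every pancreas, 24 in every liver of set 1 and 16 in every lung. Of the set 1 genes, 6 in the liver and 5 in the lung are listed at exactly 0 in every sample, 3 Timp genes among them, and such a 0 is not read as a low level.

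The pancreas had the most members called. Of the 50 members 46 had enough counts to be tested and 17 of these were higher in A3B pancreases (37.0%, against 17.0% of the 19142 genes tested), with edgeR's quasi-likelihood test and an adjusted p under 0.05. Another 2 were lower (4.35%, against 14.9% of all genes). After TMM scaling, every A3B pancreas lay on the same side of both controls for 23 of the 46 members, 19 of them above, and 44.0% of all genes did so. The median log2 change of the tested members was 0.93, and that of all genes 0.09. Members were filtered on counts, and those that passed through high A3B libraries alone could differ only upward. Mmp20 (0 counts in both controls) and Mmp24 (3 and 6 counts) were such members, so their place among the 17 is no support for a direction. They are also among the 19 above, as are Mmp12 (0 and 39 counts in the controls) and Mmp13 (0 and 10). With Adamts3 (5 and 7), Adamts13 (1 and 14) and Mmp27 (0 and 53) these members also enter the median, so the 19 and the median carry the same limit. With libraries scaled by totals 35 members were called higher and 0 lower, where 13483 of all 19142 genes were higher and 210 lower. Without A3B pancreases 44 and 137, whose labelled genotype conflicts, 15 members were higher and 2 lower (Adamts16 and Adamts10), and of all 18935 genes tested 2255 were higher and 2119 lower.

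**Figure D1:**
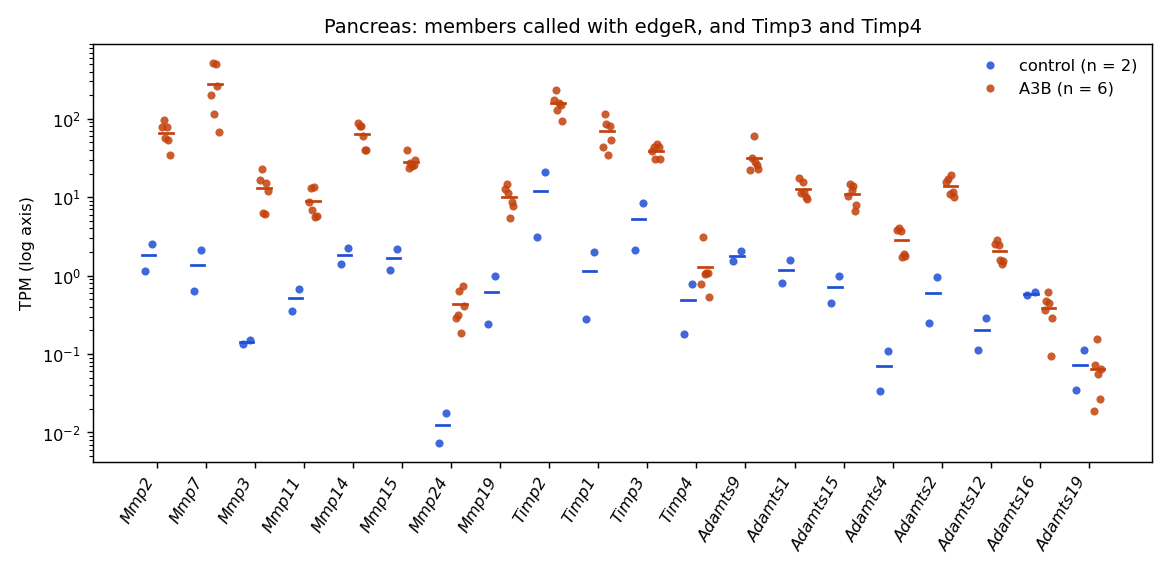
Level of each called member, and of Timp3 and Timp4, in the 6 A3B and 2 control pancreases, in TPM on a log axis; each point is a mouse and each bar a group mean, and Mmp20, at 0 in both controls, is left out. Mmp7 reaches 68.4 to 516 TPM in A3B mice against 0.646 and 2.11 TPM in controls, while Adamts16 and Adamts19 overlap on this scale.

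Of the members called with more than 6 counts in a control, Mmp7 and Mmp3 had the largest log2 changes. Mmp7, matrilysin, a small epithelial protease with broad substrates, was at 0.646 and 2.11 TPM in control pancreases 45 and 168 and at 199, 516, 115, 502, 261 and 68.4 TPM in A3B pancreases 44, 53, 49, 125, 137 and 153. Every A3B library was above both controls, and the A3B libraries themselves spread widely, with 53 and 125 highest and 153 lowest. On the TMM scale Mmp7 rose 47.8-fold (log2 5.58, SE 1.03, adjusted p = 0.00407). Mmp3, stromelysin-1, was at 0.136 and 0.15 TPM in controls and between 6.15 and 22.7 TPM in A3B mice, and rose 18.6-fold (log2 4.22, SE 0.74, adjusted p = 0.00274). Mmp11, stromelysin-3, which is known from fibroblasts next to remodelling epithelium, was at 0.351 and 0.683 TPM in controls and between 5.57 and 13.4 TPM in A3B mice, and rose 4.27-fold (adjusted p = 0.00711). Mmp12, macrophage elastase, was at 0 and 0.155 TPM in controls and between 0.814 and 9.48 TPM in A3B mice, with a log2 change of 3.14 (SE 1.17) that missed the threshold (adjusted p = 0.0677).

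Among the other genes of the chromosome 9 cluster, levels were low. Mmp20, enamelysin of tooth enamel, had 0 counts in both control pancreases and up to 70 counts, or 0.27 TPM, in A3B pancreas 53. Measured against a floor of 3 counts per control library it was at least 1.72-fold higher. Since it passed the filter through the A3B libraries alone, its adjusted p of 0.0422 with edgeR supports no direction, and its call was lost without A3B libraries 44 and 137 together and when any of A3B libraries 44, 53, 125 and 137 or either control was left out, with adjusted p up to 0.159 without control 168. Mmp10, stromelysin-2, was not tested and had 0 counts in controls and at most 20 in an A3B library. Mmp13, collagenase-3, was at 0 and 0.0466 TPM in controls and at 0.16 to 0.597 TPM in A3B mice (log2 1.82, SE 0.947, adjusted p = 0.165).

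Of the gelatinases only Mmp2 was called. Mmp2, gelatinase A (chr8:92827291-92853420), was at 1.15 and 2.56 TPM in controls and at 78.1, 96.6, 56.6, 77.7, 54.1 and 34.1 TPM in A3B pancreases 44, 53, 49, 125, 137 and 153. The groups did not overlap, and Mmp2 rose 7.71-fold (log2 2.95, SE 0.47, adjusted p = 0.00146). Mmp9, gelatinase B of neutrophils and macrophages, was at 0.0365 and 1.36 TPM in controls and at 0.265 to 1.97 TPM in A3B mice, so the groups overlapped (log2 -1.46, SE 0.947, adjusted p = 0.266). Its log2 change turned to 0.435 when libraries were scaled by totals.

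Of the 6 membrane-type enzymes 3 were called higher, Mmp24 among them only through counts in A3B libraries. Mmp14 (chr14:54431612-54445364), the activator of pro-MMP2, was at 1.4 and 2.23 TPM in controls and at 87.3, 79.9, 80.2, 60.2, 39.6 and 40.1 TPM in A3B pancreases 44, 53, 49, 125, 137 and 153, and rose 7.32-fold (log2 2.87, SE 0.41, adjusted p = 0.000845). Mmp15 (chr8:95352268-95375080), a close relative found on epithelium, was at 1.17 and 2.21 TPM in controls and at 23.3 to 39.9 TPM in A3B mice, and rose 3.82-fold (adjusted p = 0.00225). Mmp24 had at most 6 counts in a control and between 0.188 and 0.737 TPM in A3B mice (log2 2.59, SE 0.68, adjusted p = 0.0154), a call lost without control 45 or control 168 (adjusted p = 0.058 and 0.0699). Mmp16, Mmp17 and Mmp25 were at most at 1.2 TPM and did not pass. Mmp19, of the remaining Mmp genes, was at 0.244 and 0.998 TPM in controls and at 5.46 to 14.9 TPM in A3B mice, and rose 3.98-fold (adjusted p = 0.00393). Mmp23, a membrane-anchored relative, had the highest control mean of the Mmp genes, though in control 45 Mmp14, Mmp15 and Mmp2 were above it, and did not pass (log2 0.77, SE 0.30, adjusted p = 0.0724).

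**Figure D2:**
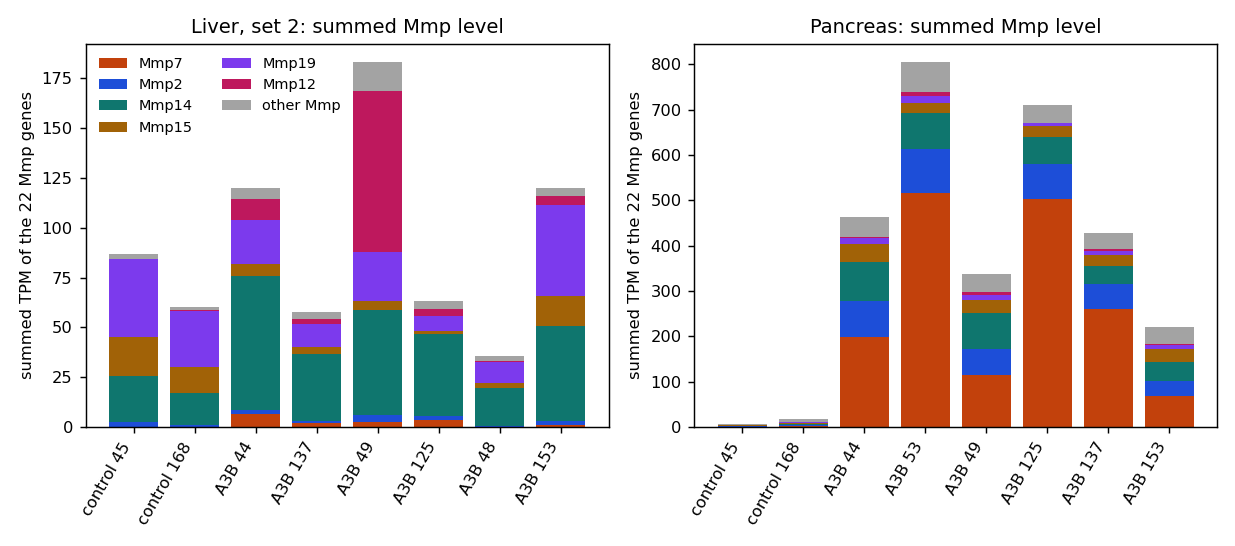
Summed TPM of the 22 Mmp genes in each liver of set 2 (left) and each pancreas (right), with the share of 6 genes in colour and the other Mmp genes in grey; the vertical axes differ. Mmp7 makes up 31.2% to 70.6% of the sum in A3B pancreases, and Mmp14, Mmp19 and Mmp15 make up most of it in livers, apart from A3B liver 49 with its Mmp12.

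The make-up of the family changed with its level. The 22 Mmp genes together summed to 6.17 and 17.6 TPM in control pancreases 45 and 168 and to between 219 and 805 TPM in A3B mice. Mmp7 alone gave 10.5% and 11.9% of that sum in controls and 31.2% to 70.6% in A3B mice. The ratio of summed Timp to summed Mmp TPM, which does not depend on the scaling of a library, was 0.926 and 1.83 in controls and lay between 0.342 and 0.816 in A3B mice, below both controls. With Mmp7 left out of the sum the groups overlapped, at 1.03 and 2.08 in controls and 0.973 to 1.65 in A3B mice. These sums are descriptions and were not tested.

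Of the 4 inhibitors Timp1 and Timp2 rose. Timp1 (chrX:20870166-20874735), an inhibitor known to be induced in injured tissue, was at 0.28 and 2.03 TPM in control pancreases 45 and 168 and at 43.9, 117, 85.3, 34.4, 80.1 and 53.2 TPM in A3B pancreases 44, 53, 49, 125, 137 and 153. All 6 A3B values were above both controls, and Timp1 rose 14.8-fold (log2 3.88, SE 0.61, adjusted p = 0.00165). Timp2 (chr11:118301069-118355740), the partner of MMP14, was at 3.13 and 21.1 TPM in controls and at 94.7 to 231 TPM in A3B mice, and rose 2.69-fold (log2 1.43, SE 0.37, adjusted p = 0.0139), a call lost without control 45 (adjusted p = 0.107) and also without A3B libraries 44 and 137 together. Timp3, the inhibitor that binds to the matrix and also blocks ADAMTS enzymes, was at 2.12 and 8.37 TPM in controls and at 30.6 to 47.1 TPM in A3B mice, with a log2 change of 0.87 (SE 0.33, adjusted p = 0.063) that was called without control 168. Timp4 was at 0.179 and 0.792 TPM in controls and at 0.533 to 3.11 TPM in A3B mice, and the groups overlapped (log2 -0.83, SE 0.532, adjusted p = 0.255), with a log2 change of 1.19 when scaled by totals. Within a library the ratio of Timp1 to Timp2 was 0.0897 and 0.096 in controls and 0.214 to 0.649 in A3B mice.

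Of the 7 proteoglycan-cleaving ADAMTS genes 4 rose in the pancreas. Adamts9 (chr6:92772699-92943492), the most abundant of them there, was at 1.54 and 2.05 TPM in controls and at 22.4, 31.6, 60.8, 27.8, 26.1 and 23.2 TPM in A3B pancreases 44, 53, 49, 125, 137 and 153, and rose 3.31-fold (log2 1.73, SE 0.31, adjusted p = 0.00269). Adamts4, aggrecanase-1, was at 0.0334 and 0.109 TPM in controls and at 1.71 to 4.07 TPM in A3B mice, and rose 9.21-fold (log2 3.20, SE 0.50, adjusted p = 0.00125). Adamts15 was at 0.45 and 0.989 TPM in controls and 6.62 to 14.6 TPM in A3B mice, and rose 3.58-fold (adjusted p = 0.00175). These 3 genes had every A3B mouse above both controls. Adamts1 was at 0.797 and 1.59 TPM in controls and 9.5 to 17.5 TPM in A3B mice, and rose 2.33-fold (adjusted p = 0.00735). Adamts5, aggrecanase-2, did not pass (log2 -0.118, SE 0.369, adjusted p = 0.831), and like Adamts4 it is known to cut aggrecan.

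Among the procollagen N-proteinases Adamts2 was at 0.246 and 0.958 TPM in controls and 10.2 to 19.3 TPM in A3B mice, and rose 5.81-fold (log2 2.54, SE 0.38, adjusted p = 0.00106), while Adamts3 and Adamts14 did not pass. Adamts12, which cleaves the cartilage protein COMP, rose 2.51-fold (adjusted p = 0.013), a call lost without control 45 (adjusted p = 0.0891), and its relative Adamts7 had a log2 change of 0.165 (adjusted p = 0.687). Adamts16 and Adamts19, both of low level, were the members that fell. Adamts16 was at 0.562 and 0.611 TPM in controls and between 0.0933 and 0.622 TPM in A3B mice (log2 -3.25, SE 0.51, adjusted p = 0.00133). Adamts19 was at 0.035 and 0.112 TPM in controls and between 0.0187 and 0.155 TPM in A3B mice (log2 -2.15, SE 0.66, adjusted p = 0.0298). The TPM of both overlapped between groups, and with libraries scaled by totals their log2 changes were -0.823 and 0.0398 with no call, so their fall is relative to other genes. The call of Adamts19 was also lost without control 45, control 168, A3B library 53 or A3B library 137 (adjusted p from 0.0504 to 0.14), and without A3B libraries 44 and 137 together (adjusted p = 0.062). Adamts10, the most abundant ADAMTS of the control pancreas, lay just over the threshold (log2 -1.53, SE 0.52, adjusted p = 0.0518), and its log2 change turned to 0.69 with libraries scaled by totals. Of the 5 ADAMTS-like genes none passed (median log2 0.23), and 1 had an unadjusted p under 0.05 with edgeR, Adamtsl2, which DESeq2 called.

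Genes that act with the family were taken from 2 lists. Of 14 activators and other inhibitors 8 rose and 2 fell in the pancreas (median log2 1.46). Plat, the tissue plasminogen activator, rose by 2.74 on the log2 scale (SE 0.58, adjusted p = 0.00667). Plaur, the urokinase receptor, rose by 2.86 (SE 0.54, adjusted p = 0.00363). Serpine2, an inhibitor of both plasminogen activators, rose by 2.82 (SE 0.33, adjusted p = 0.000328), and Lrp1, a receptor that clears proteases with their inhibitors, by 2.17 (SE 0.39, adjusted p = 0.00246). Of 16 matrix substrates 14 were tested and 10 rose, with a median log2 change of 1.87. The collagen gene Col1a1 rose by 3.04 (SE 0.41, adjusted p = 0.000606) and the small proteoglycan Bgn by 3.11 (SE 0.38, adjusted p = 0.000367). Basement membrane collagens Col4a1 and Col4a2 rose by 2.34 (SE 0.32, adjusted p = 0.000606) and 2.54 (SE 0.33, adjusted p = 0.000512).

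Markers of some other cell types moved with these genes in the pancreas. The 8 fibroblast and stellate markers summed to 38.7 and 175 TPM in controls and 871 to 1346 TPM in A3B mice, with 5 of 8 higher. The 6 macrophage markers summed to 37.8 to 508 TPM in controls and 1178 to 3540 TPM in A3B mice, with 4 of 6 higher, Cd68 among them by 4.02 on the log2 scale (SE 0.42, adjusted p = 0.00021). The 5 ductal markers summed to 50.5 to 88.9 TPM in controls and 1176 to 2933 TPM in A3B mice, with 3 of 5 higher, Krt7 and Krt19 included. Of the 6 acinar markers 5 were lower. Of 6 neutrophil markers 1 was higher and 1 lower (median log2 -0.69). Of 4 adipocyte markers 0 were called (median log2 -2.39), and 1 of 5 endothelial markers was higher (median log2 0.22). The endothelial sum in TPM still went from 8.91 and 21.8 in controls to 63.2 to 101 in A3B mice, so the sums above also depend on the fixed total. No gene of these lists was at 0 in all pancreases, and their part in the changes of the protease genes was not tested.

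In the livers of set 2 no member passed the threshold with edgeR among 42 tested, where 1.25% of the 17376 genes tested were higher and 2.41% lower. At an unadjusted p under 0.05 there were 7 members. DESeq2 called 6, with Adamts4, Mmp7, Mmp24, Timp1 and Timp4 higher and Mmp15 lower, where it called 1302 genes higher and 1099 lower of 17376. Of these, Mmp24 (1 and 2 counts in control livers), Timp4 (0 and 6), Timp1 (1 and 10) and Mmp7 (1 and 11) passed the filter mainly through A3B libraries and could hardly differ but upward. After TMM scaling, 10 members had every A3B liver above both controls or every one below (23.8%, against 27.9% of all genes). The median log2 change of the members was 0.47, beside 0.21 for all genes. A3B liver 48 held little of many members, and without it edgeR called Adamts4 and, with the same limit of low control counts, Mmp7 higher. Calls over all genes rose too, from 218 higher and 418 lower to 375 and 738 of 17079.

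The A3B livers differed widely from each other. Mmp7 was at 0.152 and 0.0136 TPM in control livers 45 and 168 and at 6.74, 2.11, 2.74, 3.48, 0.0518 and 1.05 TPM in A3B livers 44, 137, 49, 125, 48 and 153 (log2 4.59, SE 1.55, adjusted p = 0.122). Mmp12 was at 0.171 and 0.211 TPM in controls and at 10.6, 2.17, 80.7, 3.69, 0.337 and 4.38 TPM in the same A3B livers (log2 5.05, SE 1.93, adjusted p = 0.167). All 6 Mmp12 values exceeded both controls, and liver 49 stood far above the rest. Without liver 49 edgeR called Mmp12 higher, where 653 of 17090 genes were called higher, against 218 of 17376 with every library.

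The inhibitors in these livers were uneven. Timp1 was at 0.18 and 0.0185 TPM in controls and at 1.13, 0.426, 3.59, 1.28, 0.187 and 0.799 TPM in A3B livers 44, 137, 49, 125, 48 and 153 (log2 3.27, SE 1.26, adjusted p = 0.163). Timp2 overlapped, at 4.43 and 6.76 TPM in controls and 1.28 to 12.3 TPM in A3B livers (log2 -0.164, adjusted p = 0.868). Timp3 was at 4.56 and 7.22 TPM in controls and at 16.2, 16.6, 18.2, 30.7, 1.64 and 14.4 TPM in those A3B livers, so 5 of 6 were above both controls and liver 48 below both (log2 1.09, SE 0.728, adjusted p = 0.4). Timp4 had 0 and 6 counts in controls and up to 234 in A3B livers (log2 5.07, SE 1.59, adjusted p = 0.104). The levels of 2 of the leading liver members were lower in most A3B mice, again without a call. Mmp15 was at 12.8 and 19.7 TPM in controls and at 5.83, 3.08, 4.6, 1.37, 2.86 and 15.4 TPM in the A3B livers (log2 -1.94, SE 0.642, adjusted p = 0.117). Without liver 153 Mmp15 was called lower, where 350 of 17257 genes were. Mmp19 was at 28.4 and 39.2 TPM in controls and at 21.9, 11.9, 24.9, 7.27 and 10.4 TPM in 5 A3B livers, while liver 153 had 45.6 TPM (log2 -1.12, SE 0.539, adjusted p = 0.25). Mmp14 went the other way, from 16.1 and 22.9 TPM in controls to 18.6 to 67.6 TPM (log2 0.71, SE 0.32, adjusted p = 0.223).

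Of the accompanying genes in these livers, Pcsk6, a proprotein convertase, fell by 1.89 on the log2 scale (SE 0.30, adjusted p = 0.0141), and it was the 1 called gene of 13 activators and other inhibitors tested. None of the 13 tested matrix substrates passed with edgeR, and 2 had an unadjusted p under 0.05. Macrophage markers summed to 222 and 249 TPM in controls and to 27.2 to 738 TPM in A3B livers, and neutrophil markers to 3.87 to 6.05 TPM in controls and 7.36 to 126 TPM in A3B livers. The hepatocyte markers summed to 30810 to 71291 TPM in A3B livers and 78050 to 131073 TPM in controls, without overlap, though none of the 5 genes was called with edgeR. At an unadjusted p under 0.05 there were 3, with Alb (log2 -1.70) and Ttr (-1.49) lower and Tat (1.99) higher. The part of these markers in the values above was not tested.

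**Figure D3:**
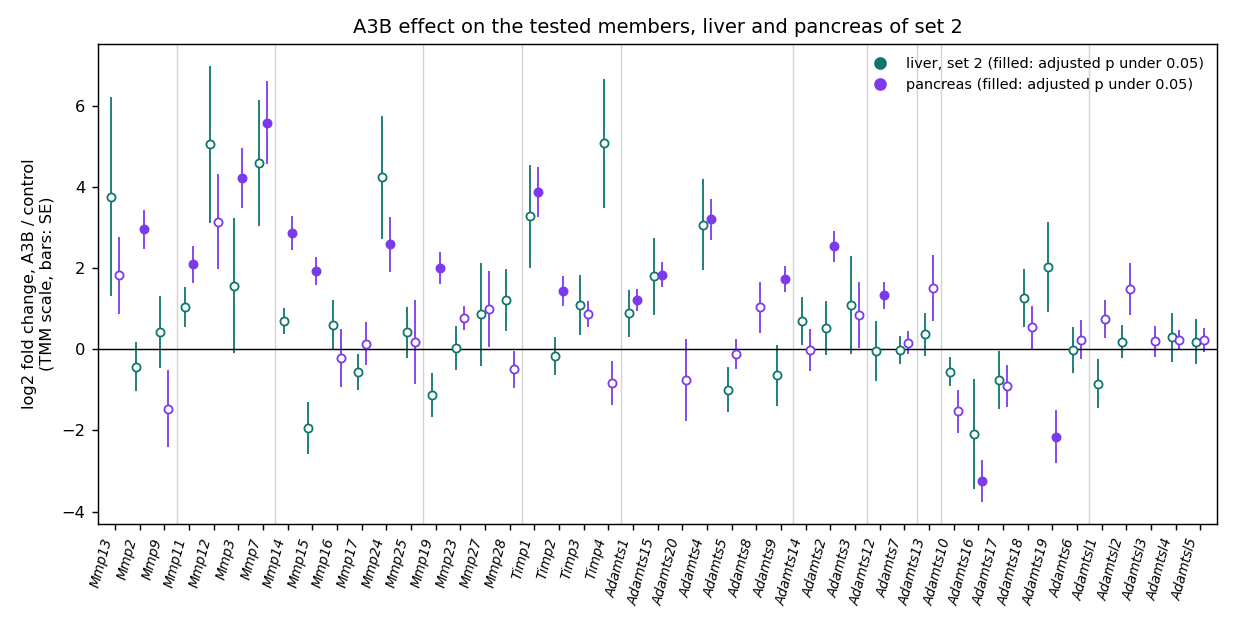
Log2 fold change between A3B and control (edgeR, TMM scale, bars give the SE) of the members tested in the liver of set 2 and in the pancreas, ordered by subfamily with grey lines between them; filled points have an adjusted p under 0.05. Members with 3 or fewer counts in both control pancreases are left out. Mmp2, Mmp14, Mmp15 and Mmp19 lie higher in the pancreas than in the liver, and Timp4 lies lower.

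Whether the A3B effect differed between the 2 tissues was tested as an interaction over the 16 libraries of set 2. The effect was more positive in the pancreas for 4 of 46 members tested (6.87% of all 19927 genes) and more negative for 1 (5.02% of all genes). Mmp15 had the largest positive difference, 4.05 (log2, SE 0.885, adjusted p = 0.0108), where the tissues fitted on their own gave -1.94 in the liver and 1.93 in the pancreas. Mmp2 differed by 3.55 (SE 0.757, adjusted p = 0.00971), Mmp19 by 3.29 (SE 0.768, adjusted p = 0.0151) and Mmp14 by 2.35 (SE 0.502, adjusted p = 0.0097). Timp4 differed by -5.76 (SE 1.54, adjusted p = 0.0256), but with control livers at 0 and 6 counts its size is uncertain, and it was -4.72 without control liver 45 and -10.68 without control liver 168. All 5 calls were lost when control liver 45 was left out (adjusted p from 0.0507 to 0.151). Without control pancreas 45 the calls of Mmp2, Mmp15 and Mmp19 were lost, and without control pancreas 168 those of Mmp15 and Timp4. With the mouse as a replicate block the 5 calls stayed and Adamts9 joined them, with a log2 difference of 2.21 (adjusted p = 0.0313) in place of 2.55 (adjusted p = 0.06). For Mmp7 the log2 changes of 4.59 and 5.58 in liver and pancreas differed by 1.17 (SE 1.65, adjusted p = 0.681), and for Timp1 those of 3.27 and 3.88 by 0.822 (SE 1.3, adjusted p = 0.72), so for both the interval of the difference is wide and includes 0.

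In the lungs of set 1 members were called in both directions. Of 33 members tested with limma on log2(TPM + 1), 8 were higher in A3B lungs (24.2%, against 16.1% of the 13651 genes tested) and 5 lower (15.2%, against 20.8%). The 3 A3B lungs lay on one side of the 3 controls for 15 members (45.5%, against 53.9% of all genes). Adamts4, among the 8 and the 15, passed the filter only through the A3B lungs, so it supports no direction. The median log2 difference was 0.32, beside -0.06 for all genes. Without control lung 87, the one with the driver alone, 6 members were higher and 3 lower, and of all 13675 genes tested 1811 were higher and 2311 lower.

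**Figure D4:**
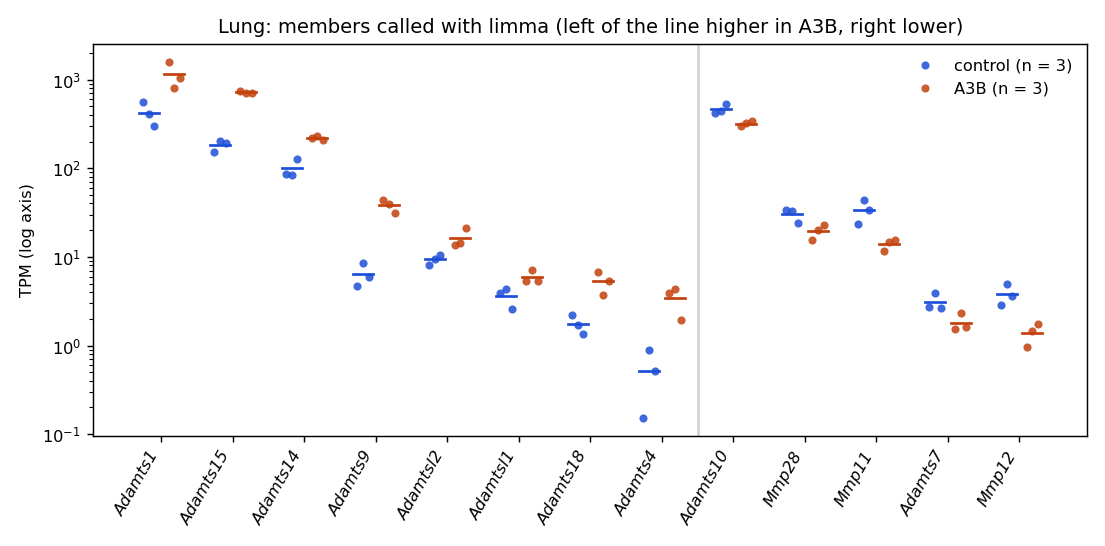
Level in TPM (log axis) of the 13 members called in the lung, in 3 A3B and 3 control lungs; points are mice, bars are group means, and the grey line separates the 8 higher members from the 5 lower ones. The A3B and control points of each gene do not overlap, and Adamts15 shows the tightest A3B values, from 700 to 737 TPM.

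Of the proteoglycan-cleaving enzymes 4 of 6 tested were called higher, Adamts4 among them only through its level in A3B lungs. Adamts15 (chr9:30899155-30922452) was at 151, 201 and 191 TPM in control lungs 87, 88 and 91 and at 737, 700 and 710 TPM in A3B lungs 69, 70 and 74, a log2 difference of 1.99 (SE 0.12, adjusted p = 0.0014). Adamts9 was at 4.68, 8.63 and 5.99 TPM in controls and 43.5, 39.7 and 31.5 TPM in A3B lungs, a difference of 2.42 (SE 0.21, adjusted p = 0.00208). Adamts1 (chr16:85793827-85803113) was at 560, 408 and 298 TPM in controls and 1586, 810 and 1049 TPM in A3B lungs, a difference of 1.43 (SE 0.31, adjusted p = 0.0162). All values of these genes were higher in A3B lungs than in any control. Adamts4 was at 0.152, 0.89 and 0.518 TPM in controls and at 3.94, 4.37 and 1.94 TPM in A3B lungs (log2 1.52, SE 0.28, adjusted p = 0.00921). Every control lay under the filter of 1 TPM, so its call supports no direction. Adamts8 and Adamts5 did not pass (adjusted p = 0.0912 and 0.266).

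The procollagen N-proteinase Adamts14 rose from a mean of 99.2 ± 24.8 TPM to 220 ± 13.1 TPM (SD, n = 3 each; log2 1.17, SE 0.17, adjusted p = 0.00553), and Adamts2, at 333 ± 128 and 348 ± 68.5 TPM, did not pass (log2 0.11, SE 0.28, adjusted p = 0.784). Adamts18 rose from 1.75 ± 0.432 to 5.28 ± 1.55 TPM (log2 1.17, SE 0.21, adjusted p = 0.00869). Adamts10, the member with the highest mean in control lungs, though Adamts1 was above it in control 87 and Adamts2 in control 88, and a binding partner of fibrillin microfibrils, fell by 0.54 on the log2 scale (SE 0.12, adjusted p = 0.0153), a call lost without A3B lung 69 (adjusted p = 0.0555). Adamts7 fell by 0.53 (SE 0.16, adjusted p = 0.0428). Of the ADAMTS-like genes Adamtsl1 rose by 0.60 (SE 0.19, adjusted p = 0.0452) and Adamtsl2, linked to microfibrils, by 0.73 (SE 0.18, adjusted p = 0.0228). These smaller calls depended on single libraries: Adamts7 was lost without any of 5 libraries, that is, all but A3B lung 70, Adamtsl1 without any but control 88, and Adamtsl2 without control 87 or 88, with adjusted p between 0.0558 and 0.127.

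The Mmp genes called in the lung were all lower. Mmp11 was at 23.2, 43.9 and 34.2 TPM in controls and 11.5, 14.7 and 15.5 TPM in A3B lungs (log2 -1.19, SE 0.24, adjusted p = 0.0114). Mmp12, the elastase of alveolar macrophages, was at 2.9, 4.96 and 3.59 TPM in controls and 0.969, 1.44 and 1.77 TPM in A3B lungs (log2 -1.0, SE 0.20, adjusted p = 0.0109). Both genes had every A3B lung under every control. Mmp28, epilysin, fell by 0.63 (SE 0.19, adjusted p = 0.0399), a call lost without control 87, control 88, A3B lung 69 or A3B lung 70 (adjusted p from 0.0791 to 0.105). Mmp7 was at or under 0.0498 TPM in every lung, and Mmp2 and Mmp14 overlapped between groups. Timp2 was at 104 ± 14.3 TPM in controls and 96.8 ± 8.01 TPM in A3B lungs (adjusted p = 0.59). Timp1, Timp3 and Timp4 are listed at 0 in all 12 samples of set 1, so nothing can be said of them there. Each of these 3 genes lies within a synapsin gene (Syn1, Syn3 and Syn2), and of the coding genes at a mean of 1 TPM or more in set 2, 36.7% of those lying wholly within another coding gene are listed at 0 throughout set 1, against 1.75% of the others. Adamtsl5 is also listed at 0 in all 12 samples of set 1. It overlaps no other coding gene and reached 5.54 TPM in A3B pancreas 49. The cause of these listed zeros was not tested.

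Macrophage markers summed to 1179 to 1275 TPM in control lungs and to 928 to 961 TPM in A3B lungs. The lower sum follows Lyz2, which was lower by 0.51 (log2, SE 0.09, adjusted p = 0.00729), while 4 of the 6 markers had a positive difference (median log2 0.38) and Cd14 was higher by 0.99 (SE 0.14, adjusted p = 0.00526). Summed fibroblast and stellate markers overlapped, at 258 to 539 TPM in controls and 260 to 367 TPM in A3B lungs, with 1 of 7 tested higher, Pdgfra by 0.76 (log2, SE 0.15, adjusted p = 0.0119), and Lrat listed at 0. The 5 endothelial markers summed to 851 to 938 TPM in controls and 621 to 843 TPM in A3B lungs, with 2 of 5 lower, Kdr with a difference of -0.70 (log2, SE 0.22, adjusted p = 0.0433) and Emcn with -0.62 (SE 0.16, adjusted p = 0.0234). Cdh5 of the same list went the other way without a call (log2 0.45, SE 0.15, adjusted p = 0.0556), at 12.3 to 17.8 TPM in controls and 18.3 to 20.3 TPM in A3B lungs. The part of these markers in the changes was not tested. Of 11 activators and other inhibitors tested in the lung 4 rose, and Plat was far the largest of them, from 52.7 to 79.2 TPM in controls to 375 to 648 TPM in A3B lungs (log2 2.84, SE 0.24, adjusted p = 0.00186). Plaur rose by 1.83 (SE 0.25, adjusted p = 0.00475), Furin, which removes the propeptide of membrane-type MMPs and ADAMTS enzymes, by 0.75 (SE 0.17, adjusted p = 0.0165) and Lrp1 by 0.61 (SE 0.17, adjusted p = 0.0352). Plau, the urokinase, fell by 1.44 (SE 0.42, adjusted p = 0.0403). Of 13 matrix substrates tested, Col4a2 and Col4a1 rose, by 0.93 (SE 0.22, adjusted p = 0.0187) and 0.86 (SE 0.23, adjusted p = 0.0268), and 0 fell. Col3a1 was not called (log2 -1.32, SE 0.41, adjusted p rounding to 0.05), nor was Col1a2 (log2 -0.68, SE 0.28, adjusted p = 0.105), and 3 substrates had every A3B lung below every control.

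In the livers of set 1 only Adamts15 of 19 members tested was called, and 31 members were below the filter of a mean of 1 TPM. Adamts15 was at 2.37, 1.77 and 1.66 TPM in control livers 11, 91 and 92 and at 8.02, 12.4 and 13.8 TPM in A3B livers 23, 28 and 70, and rose by 2.06 (log2, SE 0.31, adjusted p = 0.0213). This is 5.26% of the members tested, against 6.07% of the 11507 genes tested, and no member was lower, against 1.86% of genes, while 4 members had an unadjusted p under 0.05 with limma. The call was lost without control 91, control 92 or A3B liver 23 (adjusted p = 0.116, 0.122 and 0.0523) and held without control 11, which carries both transgenes. Over all genes, 1, 7 and 43 were higher in those 3 fits, against 699 with every library. The log2 difference of Adamts15 lay between 1.92 and 2.48 in all 9 alternatives. For 6 members the 3 A3B livers were all above or all below the controls (31.6%, against 38.9% of all genes). Mmp14 was at 37.4, 43.4 and 41 TPM in controls and 83, 97.1 and 76.7 TPM in A3B livers (log2 1.05, SE 0.27, adjusted p = 0.0548). Adamts1 was at 49.1, 23.1 and 21.7 TPM in controls and 55.5, 355 and 110 TPM in A3B livers (log2 2.12, SE 0.68, adjusted p = 0.086). Mmp19 was at 58.4, 35.5 and 41.9 TPM in controls and at 7.42, 6.53 and 48.4 TPM in A3B livers, so liver 70 stayed at the control level (log2 -1.63, SE 0.71, adjusted p = 0.158). Without liver 70 Mmp19 was called lower, where 511 of 11436 genes were. A3B liver 28 held the highest Adamts4, at 26 TPM, where the other A3B livers had 0.864 and 1.09 TPM, and the highest Mmp24, at 5.48 TPM. The median log2 difference of the members was 0.33, beside 0.39 for all genes. Timp2, the inhibitor with a value here, was at 3.45 to 4.36 TPM in controls and 1.98 to 4.85 TPM in A3B livers (adjusted p = 0.613). Of the accompanying genes, none of 8 activators and other inhibitors and none of 11 matrix substrates passed with limma, and 1 and 3 of them had an unadjusted p under 0.05. Macrophage markers summed to 270 to 330 TPM in controls and 96.2 to 600 TPM in A3B livers, and their part in these values was not tested.

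**Figure D5:**
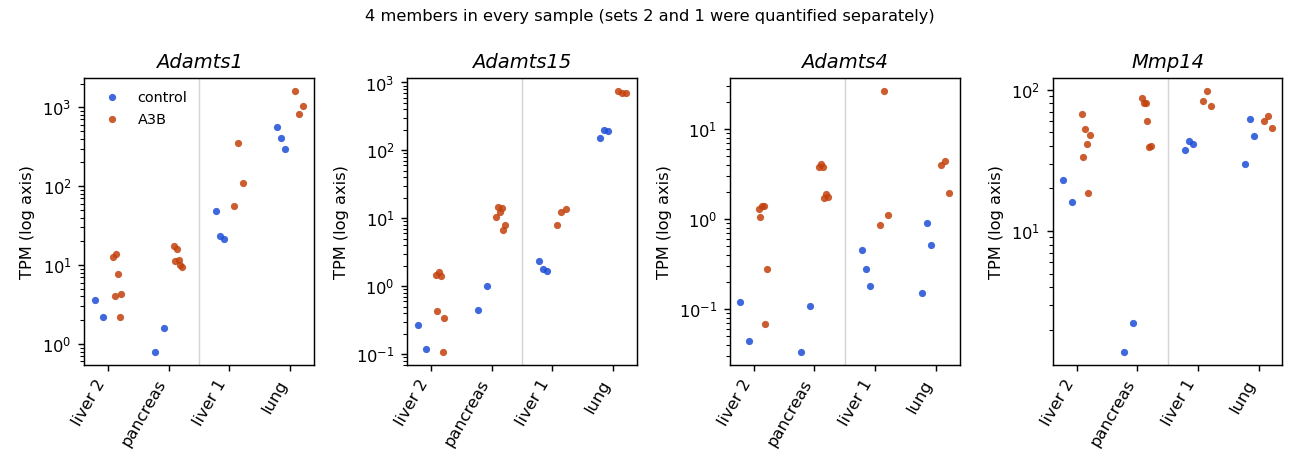
Adamts1, Adamts15, Adamts4 and Mmp14 in every sample, in TPM on log axes that differ between panels; blue points are controls and orange points A3B mice, and the grey line separates set 2 (liver 2, pancreas) from set 1 (liver 1, lung), which were quantified separately. Adamts15 was called in the pancreas, in the livers of set 1 and in the lung.

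Side by side, Adamts15 was called higher in 3 of the 4 comparisons, with log2 changes of 1.84 in the pancreas, 1.99 in the lung and 2.06 in the livers of set 1, and of 1.80 (SE 0.947, adjusted p = 0.284) in the livers of set 2. The liver and lung comparisons of set 1 share mice 70 and 91, and those of liver and pancreas share most mice. Adamts1, Adamts4 and Adamts9 were called higher in both pancreas and lung, where Adamts4 passed the lung filter only through A3B lungs. The share of all genes called higher in several comparisons was not counted, so these shared calls are a description. Mmp11 was called in the pancreas and in the lung in opposite directions, at 2.09 and -1.19, and whether these differ was not tested across the sets. Several called members overlap a neighbouring coding gene (Mmp11 with Chchd10, Mmp19 with Tmem198b, Mmp24 with BC029722, Timp2 with Cep295nl, Adamts7 with Tbc1d2b, Mmp28 with 1700020L24Rik, Adamtsl1 with Sh3gl2, Adamts9 with Gm15737, Mmp12 with Mmp1b), and reads of the shared stretch may count for either, since the strand setting of the counting is not given in the sources used here.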

How the data were processed

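RNA-seq values of 28 mouse samples were used, 16 of set 2 and 12 of set 1. For set 2 the authors deposited, per transcript, an estimated count and a TPM from kallisto against mm10 transcripts, with no later normalization; transcripts were matched to genes with GENCODE M21 of GRCm38 (116728 of 119414 transcripts) and summed per gene, and estimated counts were rounded. For set 1 the authors deposited TPM per gene, which hold no counts. The labels name the builds GRCm38 and mm10. Transcripts without a gene held 0.225% to 1.46% of the counts of a library, and 4 rows of set 1 with 2 repeated names were left out.

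Set 2 was tested per tissue with edgeR 4.0.16 (filterByExpr, TMM, robust quasi-likelihood F test), and the difference between tissues as an interaction term. Set 1 was tested with limma 3.58.1 (trend, robust) on log2(TPM + 1) for genes whose mean reached 1 TPM; a fold change on that scale understates the change of low genes. P-values were adjusted by Benjamini-Hochberg over all genes tested, with a threshold of 0.05. Samples are separate mice. Liver and pancreas of set 2 are paired by animal. The deviations of paired libraries from their group means correlated at -0.00345 to 0.246 over genes in A3B mice. In set 1, mice 70 and 91 gave both tissues, which were tested separately.

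Named are members called in a comparison, the 4 Timp genes and the 5 highest members in each control group, and of the accompanying lists up to 4 genes with the smallest p; Mmp, Adamts and marker genes outside this rule (such as Mmp9, Mmp12 in pancreas and livers, Mmp10, Mmp13, Adamts5 and Plau) were chosen after their values were seen. The members and lists were chosen with earlier results of these data known. A gene that falls under the symbol rule is not reported here. The scripts were tested on simulated data. DESeq2 1.42.0 was an alternative, and leaving out A3B pancreases 44 and 137 together was chosen after seeing the data. Sequences come from RefSeq (GRCm38.p6). Software was R 4.3.3 and Python.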

Additional observations from a re-analysis of the deposited data

Results flagged for a closer look

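Outlying libraries were looked for among 36 sets of 6 A3B values, of members described in the liver of set 2 and the pancreas, by the gap of the extreme value against the whole range; by chance about 1 in 20 such sets would be picked out. In the livers, Mmp15 of A3B liver 153 stood apart at 15.4 TPM, Mmp12 of A3B liver 49 at 80.7 TPM and Timp1 of A3B liver 49 at 3.59 TPM. In the pancreases, Adamts9 of A3B pancreas 49 was at 60.8 TPM, Mmp20 of A3B pancreas 53 at 0.27 TPM and Timp4 of A3B pancreas 53 at 3.11 TPM.

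The A3B effect differed between pancreas and liver, by the interaction test, for Mmp14 (2.35 on the log2 scale), Mmp15 (4.05), Mmp19 (3.29), Mmp2 (3.55) and Timp4 (-5.76). Some members had every A3B sample on opposite sides of the controls in 2 tissues of different sets, where the difference was not tested. Mmp11 had a log2 change of -1.19 in the lung, 2.09 in the pancreas and 1.04 in the livers of set 2. Mmp12 had -1.0 in the lung, 3.14 in the pancreas and 5.05 in the livers of set 2. Mmp15 had -0.80 in the livers of set 1 and 1.93 in the pancreas.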

How the results depend on the processing

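Scaling by library totals raised the members called higher in the pancreas from 17 to 35 and in the difference between pancreas and liver from 4 to 16, where all genes called higher came to 13483 of 19142 and 7848 of 19927, and left 0 lower in the pancreas, where Adamts19 reversed to a log2 change of 0.04; limma on log2(TPM + 1) also left 0 lower there. DESeq2 called 5 members higher and 1 lower in the livers of set 2, and 2 lower in the difference between tissues. Without a filter on low values set 1 gave 0 higher in the liver and 3 lower in the lung. With the mouse as a replicate block, 5 members were higher and 1 lower in the difference between tissues (4 and 1 without it), and no call was lost. Leaving out 1 library at a time gave 0 to 2 higher and 0 to 1 lower in the livers of set 2, 14 to 21 higher and 1 to 3 lower in the pancreas, 0 to 2 higher and 0 to 1 lower in the livers of set 1, 6 to 11 higher and 2 to 5 lower in the lung, and 0 to 6 positive and 0 to 2 negative differences between tissues, with 0 of both without control liver 45. With a single control left, that control is assumed to vary as the A3B libraries do. Calls over all genes moved as well. Leaving out single A3B libraries gave 43 to 653 genes higher and 133 to 943 lower in the livers of set 2. For the pancreas it gave 2818 to 3133 higher and 2465 to 2689 lower. In the livers of set 1, 1 gene was higher without control 91 and 1362 without control 11, against 699 with every library. Set 2 has 2 controls a tissue, and the depth of set 1 is unknown. The cause of these shifts was not tested.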
